A study of Mus musculus with 31 samples.

Results

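Translation initiation factors are the proteins that bring the ribosome, the initiator methionyl tRNA and an mRNA together before protein synthesis begins. The members described here are all protein-coding genes whose GENCODE vM21 symbol starts with Eif1 to Eif6, leaving out the Eif2ak genes, which encode kinases. The rule gave 51 genes of the 21397 protein-coding genes present in both count tables, and each of the 51 was present in both. By known role they fall into 8 families: eIF1 and eIF1A with 5 genes, the eIF2 subunits with 4, the eIF2B subunits with 5, eIF2A and eIF2D with 2, the eIF3 subunits with 14, the eIF4 factors with 12, the eIF4E-binding proteins with 4, and eIF5, eIF5B, eIF5A and eIF6 with 5.

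As background, eIF1, eIF1A and eIF3 bind the small ribosomal subunit, which takes up the ternary complex of eIF2, GTP and initiator tRNA, and eIF2B recharges eIF2 with GTP. The eIF4F complex, made of the cap-binding eIF4E, the helicase eIF4A and the scaffold eIF4G, recruits the mRNA, and eIF5 and eIF5B complete start codon selection and subunit joining. In liver and muscle, insulin acts on this machinery through mTORC1, which phosphorylates the eIF4E-binding proteins and so frees eIF4E.

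The study asked how the nuclear receptor ERRα (gene Esrra) takes part in the response to insulin, and measured gene counts by RNA sequencing in 31 samples from male C57BL/6N mice 2 to 3 months old. In the first count table, wild-type (WT) mice and littermates lacking ERRα in the whole body (ERRα KO) went without food for 12 h and then received saline or 1 unit of insulin per kg into the peritoneum, and livers were taken 4 h later. This gave 4 WT saline, 4 WT insulin, 4 ERRα KO saline and 3 ERRα KO insulin livers. In the second table, homozygous ERRα3SA mice, in which genome editing had replaced 3 serines of ERRα by alanine, and WT littermates gave 4 livers and 4 skeletal muscles (gastrocnemius and soleus) per genotype. No injection is named for the second set, and whether a liver and a muscle with the same number came from one animal is not stated. Because ERRα was absent from every organ of the KO mice, effects of its loss in liver and of its loss elsewhere cannot be told apart. Total counts ran from 35871419 to 48317108 per sample in the first table and from 20481405 to 33412022 in the second. The 51 members together took 5136 to 5916 of every 1000000 counts in the first table, 5320 to 5613 in the livers of the second and 6800 to 7372 in the muscles.

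Levels are given as CPM (counts divided by the scaled total and multiplied by 1000000) after TMM scaling within a table, and levels of different genes are compared only as TPM (transcripts per 1000000), which also divides by the summed exon length. A gene is called changed where the unadjusted p of edgeR's quasi-likelihood test is under 0.05 and the fold is at least 1.2. Both thresholds are the study's, while the choice of edgeR is not, as the authors used DESeq2, and the Benjamini-Hochberg adjusted p over all genes tested stands beside it. SE is the standard error of a log2 fold change. Groups did not overlap in 12 of 50 members and 12.4% of all genes for insulin in WT liver. In ERRα KO liver this held for 5 of 50 and 17.6%. For KO against WT it held for 9 of 50 and 7.09% with saline and 6 of 50 and 12.4% with insulin. It held for 3 of 49 and 4.49% for ERRα3SA in muscle, and for 40 of 50 and 82.9% between WT muscle and liver. The tables were counted separately, so tests stay within a table.

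Esrra, the deleted gene, matched the labels of the KO livers. Its level was 32.3, 51.3, 42.7 and 40.5 CPM in WT saline livers and 53.7, 96.4, 56.1 and 59.0 CPM in WT insulin livers. It was 1.63, 0.703, 1.15 and 1.04 CPM in ERRα KO saline livers and 0.833, 0.576 and 0.298 CPM in ERRα KO insulin livers, so that no KO liver came near a WT liver. The ERRα3SA change leaves the transcript in place, and Esrra lay between 19.2 and 29.4 CPM in the 8 livers of the second table. In WT muscle it was 90.2, 82.6, 66.9 and 78.0 CPM, and in ERRα3SA muscle 24.3, 133, 127 and 94.5 CPM, with replicate 1 below every other muscle.

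The tissue labels fit the marker genes. The summed level of 6 hepatocyte genes, led by Alb, was 57500 CPM in ERRα3SA liver replicate 4, 79790 to 105900 CPM in the other 22 livers and 8.09 to 18.6 CPM in the 8 muscles, and that of 6 muscle fibre genes, led by Myh4 in muscle, was 80100 to 179200 CPM in muscle. In liver the muscle fibre sum was at most 14.4 CPM, except in WT insulin replicate 3, where it reached 105 CPM. Some samples stood apart in other ways. Mitochondrially encoded genes took 1.88% of counts in WT insulin replicate 2 against 3.88% to 4.17% in the other WT insulin livers, and 19.3% in ERRα3SA muscle replicate 1 against 9.15% to 9.85% in the other ERRα3SA muscles. ERRα3SA muscle replicate 4 had a muscle fibre sum of 80100 CPM against 102900 CPM or more in the other muscles, a Kupffer cell list sum of 18.1 CPM against at most 8.18 CPM, and a lymphocyte sum of 15.7 CPM against at most 6.71 CPM. The lists for Kupffer cells, endothelium, stellate cells and fibroblasts, cholangiocytes, red blood cells, lymphocytes and adipocytes were also measured, and their called genes are given beside each comparison within a tissue. These are bulk tissue samples, in which fewer cells of a type and less RNA per cell cannot be told apart.

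Across the families, the members differed in level by far more than any treatment moved them. In WT saline liver the most abundant members by mean TPM were Eif4g1, the main eIF4F scaffold, at 282, Eif5a, the hypusine-carrying factor, at 267, Eif4b, a helicase cofactor, at 245, Eif4g2, a scaffold without the eIF4E site, at 209.5, and Eif1, the start codon gatekeeper, at 208. Within eIF2 the order in those livers was Eif2s3x at 53.1 TPM, Eif2s2 at 30.6, Eif2s3y at 23.4 and Eif2s1 at 19.3. In eIF2B, Eif2b5, the catalytic epsilon subunit, was highest at 49.8 TPM and Eif2b3, the gamma subunit, lowest at 3.39. The 14 eIF3 genes ran from Eif3b at 144 TPM down to Eif3d at 13.6 and Eif3j2 at 1.87 TPM in WT saline liver, although the core subunits are found in equal numbers in the complex. Reads of Eif3d cannot be told apart from those of the antisense gene Gm17638, which covers 43.3% of its exon bases, as no strand setting is given for the counting. In the eIF1 and eIF1A family Eif1ad was lowest, at 17.5 TPM. Of the unconventional tRNA carriers, Eif2a stood at 16.5 TPM and Eif2d at 12.3.

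Eif4e1b, an oocyte form of eIF4E, had 0 counts in all 23 livers, 0 in WT muscle and 0 to 9 per sample in ERRα3SA muscle, and passed the filter for low counts in no comparison. Without that filter it was called higher in ERRα3SA than in WT muscle, from 0 counts in WT and 3, 2, 0 and 9 counts in ERRα3SA muscle, too few for a fold to be given. Eif5a2 had 2 to 22 counts per liver in the first table. Eif4ebp3, the least abundant eIF4E-binding protein gene, had 22 to 172 counts per liver there, at 5.42 TPM in WT saline liver against 75.2 for Eif4ebp2 and 29.0 for Eif4ebp1. Most of the exon bases of Eif4ebp3 (67.3%) also belong to the read-through gene AC115631.1 on the same strand, so its counts are uncertain.

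The Y-linked Eif2s3y and its X-linked partner Eif2s3x both encode the gamma subunit of eIF2. Eif2s3y was found in every sample, between 26.3 and 42.7 CPM in the first table and between 39.0 and 58.0 CPM in the second, and Eif2s3x lay between 51.3 and 79.2 CPM over both tables. Eif2s3x made up 69.5% ± 3.36 (SD, n = 4) of the pair's summed TPM in WT saline liver and 53.8% ± 3.18 (SD, n = 4) in WT liver of the second table. Since the tables were counted separately, the gap between those shares is not a comparison of mice.

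To ask which of these promoters hold elements of interest, the 250 bases before each start site in the RefSeq promoter table (GRCm38.p6) were searched on both strands. A window was given for 39 of the 51 members. Some genes have several start sites, so these 39 members had 51 windows, and a match in any window of a gene counted. The ERR response core TNAAGGTCA was found in 0 of the 39 and in 1.3% of all 27025 genes. The E-box CACGTG was found in 9 of 39, against 6.86% of all genes: Eif1b, Eif3f, Eif3k, Eif4a1, Eif4e, Eif4g1, Eif4h, Eif5a and Eif5a2. The forkhead element GTAAACA was in 1 member, Eif2s3y (3.54% of all genes), and the amino acid response core TGATGNAA in 1 member, Eif2s3x (3.91%). The NRF1 element, GCGCA and GCGC set 1 free base apart, was in 6 members, namely Eif1, Eif2s1, Eif3a, Eif3k, Eif4e and Eif5a (4.23%). The CCAAT box (CCAAT) was in 12 members, against 37.5% of all genes, and the ETS core CCGGAAG in 12, against 7.83%. In all, 7 motifs were searched, the last 3 of them added after the members' values were seen, and no test was made of any share. The CCAAT box and the ETS core were for a time left out after their matches were seen, and then restored. A match is a description of the letters and not a bound site.

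The promoters of 5 genes are shown because the results below name these genes, with bases that GENCODE vM21 counts as exon left out. They were picked after the values and the matches were known, so the motifs in them are no evidence of a pattern, and other members with the same motifs, such as Eif3k, Eif4g1 and Eif4h, are not shown. Eif1 and Eif3a, which differed in opposite directions between the genotypes' insulin responses, have the NRF1 element in capitals. Eif4a1, lower in muscle, and the pair Eif5a and Eif5a2 have the E-box in capitals. The Eif1 stretch is chr11:100319699-100319884 on the plus strand, with its match starting 208 bases before the start site. That of Eif3a is chr19:60790694-60790943 on the minus strand (match at 68 bases). That of Eif4a1 is chr11:69672424-69672673 on the minus strand (189 bases), that of Eif5a is chr11:69921387-69921636 on the minus strand (74 bases), and that of Eif5a2 is chr3:28781109-28781275 on the plus strand (142 and 117 bases). Eif5a has several start sites in the promoter table, and the stretch shown, for 1 of them, lies inside the annotated gene. It also holds NRF1 matches at -129 and -13 from that start site, left in lower case.
Eif1: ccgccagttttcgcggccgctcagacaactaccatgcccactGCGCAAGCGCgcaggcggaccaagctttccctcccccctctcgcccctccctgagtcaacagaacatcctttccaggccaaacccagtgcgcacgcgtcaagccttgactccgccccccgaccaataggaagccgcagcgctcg
Eif3a: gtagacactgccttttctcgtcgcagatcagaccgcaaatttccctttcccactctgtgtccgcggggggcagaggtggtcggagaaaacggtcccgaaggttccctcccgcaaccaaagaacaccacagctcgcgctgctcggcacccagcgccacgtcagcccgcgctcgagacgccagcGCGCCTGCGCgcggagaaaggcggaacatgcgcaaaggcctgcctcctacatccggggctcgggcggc
Eif4a1: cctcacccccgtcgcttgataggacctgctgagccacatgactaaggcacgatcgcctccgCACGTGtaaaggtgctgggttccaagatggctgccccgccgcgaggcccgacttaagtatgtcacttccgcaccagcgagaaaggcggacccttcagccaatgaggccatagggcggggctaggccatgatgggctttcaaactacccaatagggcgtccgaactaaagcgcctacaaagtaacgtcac
Eif5a: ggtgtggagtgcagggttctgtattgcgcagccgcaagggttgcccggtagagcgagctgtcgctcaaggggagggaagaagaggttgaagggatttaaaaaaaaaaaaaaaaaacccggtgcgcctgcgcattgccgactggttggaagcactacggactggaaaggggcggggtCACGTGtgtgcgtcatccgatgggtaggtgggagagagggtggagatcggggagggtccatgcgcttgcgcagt
Eif5a2: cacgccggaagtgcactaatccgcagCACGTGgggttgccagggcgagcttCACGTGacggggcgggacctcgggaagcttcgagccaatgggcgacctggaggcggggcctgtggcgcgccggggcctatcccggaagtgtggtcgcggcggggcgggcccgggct

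Insulin in WT liver was the comparison with the most called members within one tissue. Of 50 members tested, 10 were called higher and 3 lower, where 8.34% of all 13463 genes tested were called higher and 8.91% lower. The median log2 fold change was 0.18 over the members and 0.00 over all genes, and the members' median was 0.09 without WT insulin replicate 2, the sample with the low mitochondrial share, and 0.14 to 0.23 without any other liver. At an adjusted p under 0.05, which 3.16% of all genes passed, 1 member remained with edgeR, Eif1. That call was lost without any 1 of WT saline replicates 1 to 4 or without WT insulin replicate 4, and the 425 genes that passed became 164, 281, 186, 105 and 164 in these fits. DESeq2 left 6 members (4 higher and 2 lower) and 936 of 13463 genes, and edgeR with all groups of the table in 1 fit left 3 members and 766 of 14670 genes. Total-count scaling in place of TMM gave 8 members higher and 4 lower. With all groups of the table in 1 fit, 13 were called higher and 4 lower, adding Eif2b2, Eif3a, Eif3g and Eif5a. Of the cell type markers, Kdr (endothelium) and Lrat (stellate cells) were called lower and Tat (hepatocytes), Cidec (adipocytes) and Acta1 (muscle fibre) higher, and the part of these in the members' values was not tested.

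Among the factors that bind the small subunit, Eif1 and Eif1a rose with insulin. Eif1 was 158, 135.5, 167 and 153 CPM in WT saline livers and 217, 285, 220.0 and 254.5 CPM in WT insulin livers. Every insulin liver was above every saline liver, with a log2 fold change of 0.67 (SE 0.13, edgeR adjusted p = 0.0206). Eif1a, the autosomal gene for eIF1A, was 61.3, 56.6, 54.5 and 38.6 CPM with saline and 80.6, 89.6, 67.0 and 73.6 CPM with insulin, and again no sample overlapped (log2 fold change 0.56, SE 0.16, edgeR adjusted p = 0.0914). Its near-identical X-linked paralog Eif1ax was 40.8 to 58.0 CPM with saline and 48.0 to 57.3 CPM with insulin and was not called, and reads of this pair may be split uncertainly. Eif1ad, a gene with an eIF1A-like domain, was called higher at 0.33 (SE 0.14), with overlapping groups. It shares 15.3% of its exon bases with the opposite-strand gene Banf1, and its call was lost without any 1 of 5 livers (WT saline replicates 1, 2 and 4, WT insulin replicates 3 and 4) and with the replicate block or total-count scaling.

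In eIF2 and its exchange factor, 1 gene of each was called. Eif2s1, the alpha subunit that the stress kinases phosphorylate, was 37.3, 34.4, 32.4 and 30.8 CPM with saline and 45.6, 54.6, 38.9 and 40.8 CPM with insulin. The lowest insulin liver was just above the highest saline liver (log2 fold change 0.41, SE 0.14, edgeR adjusted p = 0.142). Eif2b3 was 8.52, 8.22, 8.57 and 5.76 CPM with saline and 10.7, 14.4, 13.1 and 11.7 CPM with insulin, without overlap (0.68, SE 0.18, edgeR adjusted p = 0.0674). The other 4 eIF2B genes and the other 3 eIF2 genes were not called, with log2 fold changes between -0.04 and 0.31 in eIF2B and between 0.00 and 0.23 in eIF2. None of the 14 eIF3 genes was called, with a median of 0.16 and a range from -0.28 (Eif3a) to 0.43 (Eif3j2). Under alternatives, Eif3a was called with total-count scaling, with all groups of the table in 1 fit and without WT saline replicate 4. Eif3g was called in that 1 fit and without WT insulin replicate 3 or 4.

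Of 11 eIF4 factors tested, 2 were called higher and 1 lower. Eif4e2, a cap-binding protein that represses its bound mRNAs, was 40.8, 40.4, 47.8 and 47.0 CPM with saline and 49.6, 61.4, 51.7 and 56.5 CPM with insulin, just clear of overlap (0.32, SE 0.12, edgeR adjusted p = 0.1998). Eif4g2 was 784, 758, 784 and 671.5 CPM with saline and 916, 842, 929 and 914 CPM with insulin (0.27, SE 0.11, edgeR adjusted p = 0.257). The Eif4g2 call sat at the fold limit: it was kept in 1 of 8 fits that left out a liver, that without WT insulin replicate 2, and was lost without the filter for low counts and with total-count scaling. Eif4b fell, from 373, 384, 402 and 379 CPM with saline to 291, 289, 312 and 327 CPM with insulin. No insulin liver reached the lowest saline liver (log2 fold change -0.33, SE 0.11, edgeR adjusted p = 0.132). The core genes of eIF4F, Eif4e, Eif4a1 and Eif4g1, were not called.

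The eIF4E-binding proteins split. Eif4ebp1, the best known mTORC1 substrate of the family, was 21.2, 22.8, 22.4 and 23.2 CPM with saline and 28.3, 29.5, 27.4 and 31.0 CPM with insulin. Both groups were tight and apart (log2 fold change 0.38, SE 0.11, edgeR adjusted p = 0.0927). Eif4ebp2 went the other way, from 148, 159.5, 149 and 156 CPM with saline to 96.9, 67.3, 135 and 115 CPM with insulin. All 4 insulin livers were lower but they spread widely, with replicate 2 the lowest (-0.57, SE 0.18, edgeR adjusted p = 0.133). As a share of the summed TPM of both genes, Eif4ebp1 took up 27.8% ± 0.505 (SD, n = 4) in WT saline livers and 43.4% ± 7.74 (SD, n = 4) in WT insulin livers. Eif4ebp3 had 0.508 to 3.52 CPM with saline and 1.07 to 4.88 CPM with insulin and was not called, at a log2 fold change of 0.88. It was called with the replicate block and without WT saline replicate 2.

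Of the late-acting factors, Eif5 and Eif6 rose and Eif5b fell. Eif5, the GTPase activator for eIF2, was 386, 367, 383 and 345 CPM with saline and 468, 485, 464 and 404.5 CPM with insulin (0.30, SE 0.11, edgeR adjusted p = 0.204). Eif6, which keeps the large subunit from joining too early, was 56.7, 50.5, 47.9 and 52.4 CPM with saline and 78.2, 61.8, 60.8 and 63.6 CPM with insulin (0.35, SE 0.12, edgeR adjusted p = 0.166). Neither overlapped, but the Eif5 call was lost without WT saline replicate 4 and the Eif6 call without WT insulin replicate 1. The opposite-strand gene Rev1 shares 16.8% of the exon bases of Eif5b, the subunit joining GTPase, so reads of the 2 cannot be told apart. Eif5b was 125, 121, 102 and 97.0 CPM with saline and 105, 84.7, 82.6 and 86.7 CPM with insulin. These groups overlapped (-0.31, SE 0.13, edgeR adjusted p = 0.252), and both this call and that of Eif4e2 were lost without WT saline replicate 1 or 2 or WT insulin replicate 2 or 4, that of Eif5b also without WT insulin replicate 3.

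**Figure D1:**
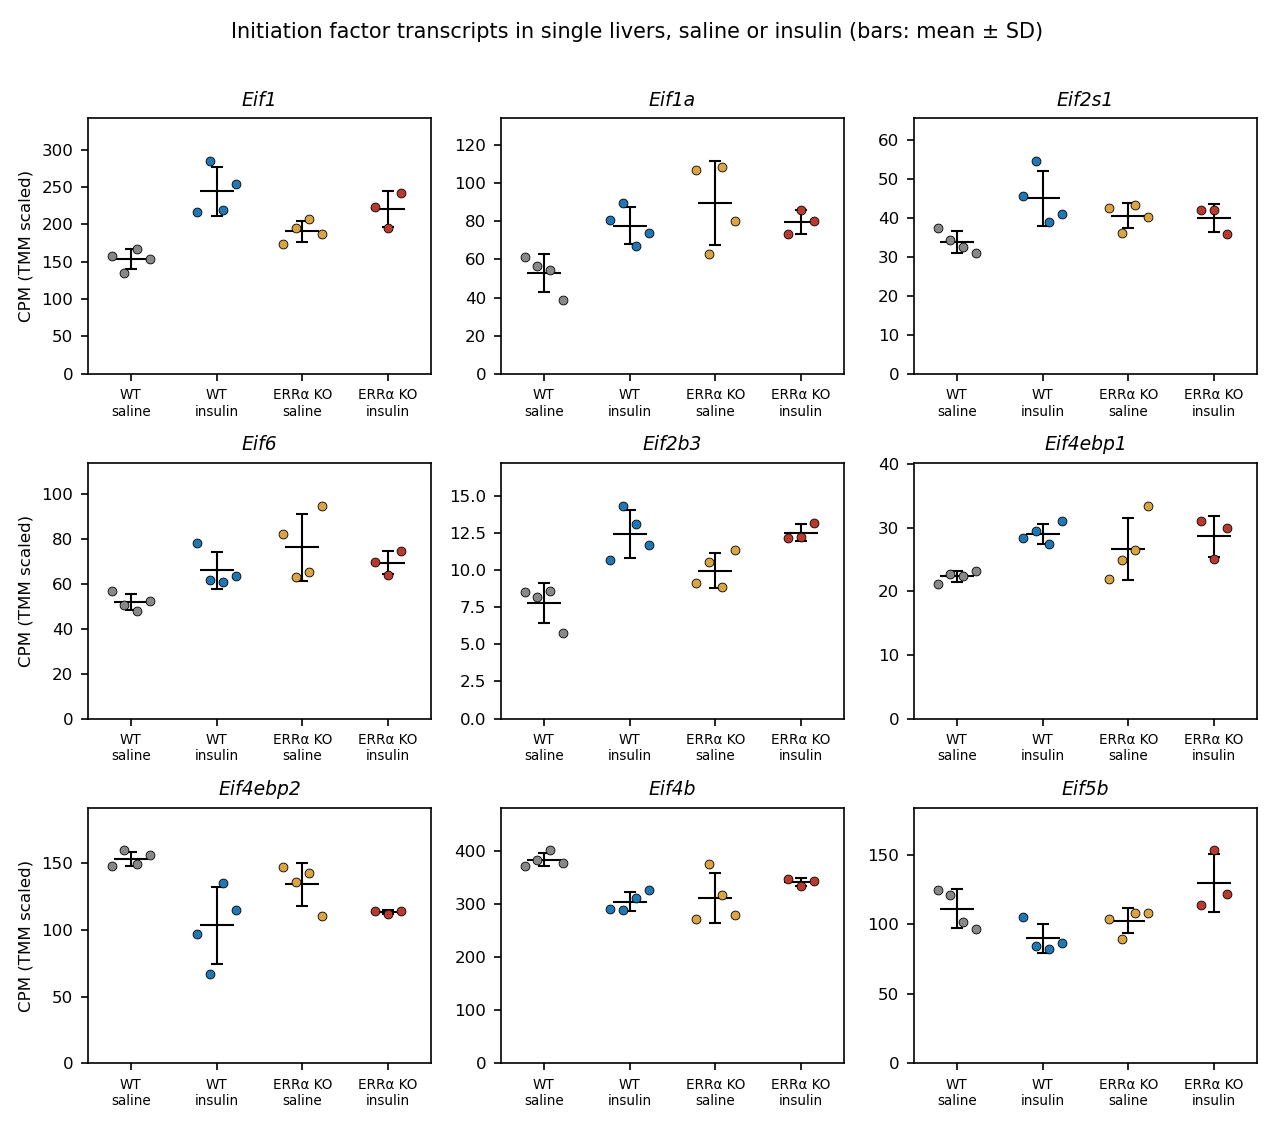
CPM of 9 initiation factor genes in single livers of the 4 groups given saline or insulin, with points for mice and bars for the mean ± SD (n = 4, and 3 for ERRα KO insulin). Eif1 rises from 135.5 to 167 CPM with saline to 217 to 285 CPM with insulin in WT livers, and Eif1a, Eif2s1 and Eif6 of ERRα KO saline livers lie mostly above those of WT saline livers.

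In ERRα KO livers the same injection gave fewer calls. Of 50 members, 6 were called higher and 0 lower, against 8.05% and 9.14% of all 13684 genes, and the median log2 fold change was 0.04 over the members and -0.02 over all genes. The members' median was 0.07 without ERRα KO insulin replicate 1 and -0.03 with total-count scaling. With edgeR 0 members and 398 genes passed the adjusted p, and with DESeq2 1 member and 988 of 13684 genes did. The 398 genes became 84, 42 and 65 without ERRα KO insulin replicate 1, 2 or 4. They became 177 without ERRα KO saline replicate 4 and 608 without its replicate 3. Eif4g3, the less abundant eIF4G scaffold, was 65.6, 78.6, 61.9 and 65.8 CPM with saline and 86.7, 98.8 and 93.9 CPM with insulin. All 3 insulin livers lay above the saline livers (0.45, SE 0.11, edgeR adjusted p = 0.0585), and this was the 1 call that held without ERRα KO insulin replicate 2. Eif5b was 104, 89.6, 108 and 108 CPM with saline and 114, 153 and 122 CPM with insulin (0.33, SE 0.13, edgeR adjusted p = 0.1905). Here it rose, where it had fallen in WT livers.

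The other calls in KO livers were Eif5 (0.32, SE 0.14), Eif2b3 (0.33, SE 0.14), Eif3b (0.28, SE 0.12) and Eif4ebp3 (1.14, SE 0.41). Eif2b3 was 9.11, 10.6, 8.83 and 11.3 CPM with saline and 12.2, 12.2 and 13.2 CPM with insulin, and Eif3b, a scaffold subunit of eIF3, was 176, 156, 160.5 and 159.5 CPM against 179.9, 229 and 186 CPM. Both were narrowly free of overlap, while the groups of Eif5 and Eif4ebp3 overlapped. Scaling by total counts in place of TMM ended the calls of Eif2b3, Eif3b, Eif5 and Eif5b and gave 2 members higher and 2 lower, with 766 genes higher and 1629 lower in place of 1102 and 1251. The replicate block ended those of Eif2b3 and Eif3b, the fit of all groups of the table those of Eif2b3 and Eif4ebp3, and leaving out the filter that of Eif2b3. Leaving out single livers other than ERRα KO insulin replicate 2 left 4 to 6 members called. Eif2b3 was lost without ERRα KO saline replicate 1 or 3 or insulin replicate 1 or 4, Eif3b without saline replicate 2, 3 or 4, Eif5 without saline replicate 1 or 4 or insulin replicate 4, Eif5b without saline replicate 2 and Eif4ebp3 without insulin replicate 1. Of the markers, Tat, Pdgfra and Hba-a2 (red blood cells) were called higher, and their part in the members' values was not tested.

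Loss of ERRα with saline was compared in 50 members, with 8 called higher and 2 lower, where 5.98% of all 13481 genes were called higher and 5.3% lower. The median was 0.12 over the members and 0.00 over all genes. With edgeR 0 members and 11 genes passed the adjusted p, and with DESeq2 2 members and 248 of 13481 genes did. Leaving out single livers gave from 2 genes (without WT saline replicate 1) to 47 (without ERRα KO saline replicate 2), and 0 members each time. This comparison shares the WT saline and ERRα KO saline livers with the insulin comparisons, so that a low value in WT saline livers enters both the WT insulin response and the KO difference. For example, Eif1a was 107, 62.8, 109 and 80.2 CPM in ERRα KO saline livers against 38.6 to 61.3 CPM in WT saline livers (0.76, SE 0.19, edgeR adjusted p = 0.185). Eif1 was 174, 195, 208 and 187 CPM in KO saline livers, all above the WT saline livers (0.31, SE 0.10, edgeR adjusted p = 0.263), and its call was lost without WT saline replicate 2.

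Eif6 was 82.1, 63.2, 65.2 and 94.9 CPM in KO saline livers, again clear of the 47.9 to 56.7 CPM of WT saline livers (0.56, SE 0.14, edgeR adjusted p = 0.183). Eif5a was 286.5, 262, 307 and 288 CPM in KO saline livers and 238, 185.5, 226 and 242 CPM in WT saline livers (0.36, SE 0.11, edgeR adjusted p = 0.246). These calls held without any 1 liver, as did that of Eif1a. Smaller calls fell on Eif2s1 (0.26, SE 0.10), Eif2b2 (0.29, SE 0.12), Eif2b4 (0.36, SE 0.14) and Eif4a3, the exon junction helicase (0.32, SE 0.12). The call of Eif2s1 was lost with DESeq2, RLE scaling, total-count scaling and no filter, that of Eif2b2 with the replicate block and total-count scaling, and that of Eif4a3 with total-count scaling. Reads of Eif2b4 can also come from the opposite-strand gene Snx17, which shares 7.85% of its exon bases.

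Lower in KO saline livers were Eif4b (-0.30, SE 0.12) and Eif4a2, the second eIF4A helicase (-0.28, SE 0.10). Eif4a2 was 122, 143, 143 and 125 CPM in KO saline livers and 166, 150.5, 161 and 171 CPM in WT saline livers, with no overlap, and its call was lost with all groups of the table in 1 fit. Eif4b was 273, 376, 318 and 281 CPM in KO saline livers, and its replicate 2 lay within the WT saline range of 373 to 402 CPM. The count of called members was 16 without ERRα KO saline replicate 2, 5 without ERRα KO saline replicate 4 and 6 without WT saline replicate 2. The calls of Eif2s1, Eif2b2, Eif2b4, Eif4a3, Eif4a2 and Eif4b were each lost without at least 2 of the 8 livers taken singly: ERRα KO saline replicate 1 (Eif2b4, Eif2s1, Eif4a2, Eif4b), 3 (Eif2s1, Eif4a3) and 4 (all but Eif2s1), and WT saline replicate 1 (Eif2b2), 2 (Eif2b2, Eif2b4, Eif4a3), 3 (Eif2s1, Eif4b) and 4 (Eif2b2, Eif2s1, Eif4a2, Eif4a3). Among markers, Adgre1 (Kupffer cells), Kdr (endothelium) and Alas2 (red blood cells) were called lower, Tat (hepatocytes) and Cd4 (lymphocytes) were called higher, and of the fibroblast genes Col1a1 was called lower and Pdgfra higher. The median over 5 Kupffer cell genes was -0.54, and their summed level, led by Clec4f, was 125 to 259 CPM in WT saline and 133 to 149 CPM in KO saline livers. The mitochondrial share was 4.82%, 3.68%, 4.10% and 4.70% in WT saline and 3.17%, 3.21%, 3.91% and 3.16% in KO saline livers, with replicate 3 of the latter within the WT range. The part of the markers and of this share in the members' values was not tested.

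With insulin in both genotypes, 2 members were called higher and 1 lower in KO livers, against 4.57% and 5.42% of all 13665 genes. The members' median was 0.02 and that of all genes -0.02, and the former was 0.08 without WT insulin replicate 2, -0.02 without WT insulin replicate 3 and with the replicate block, 0.00 without WT insulin replicate 4, 0.04 without WT insulin replicate 1 and -0.07 with total-count scaling. Eif3a, the largest eIF3 subunit, was 169, 151, 139.9 and 166 CPM in WT insulin livers and 196, 252 and 199.7 CPM in KO insulin livers (0.45, SE 0.14, edgeR adjusted p = 0.295). Eif5b was 114, 153 and 122 CPM in KO insulin livers, all above the 82.6 to 105 CPM of WT insulin livers (0.52, SE 0.15, edgeR adjusted p = 0.255). Eif4e2 was 46.3, 33.4 and 40.2 CPM in KO insulin livers, all below the 49.6 to 61.4 CPM of WT insulin livers (-0.47, SE 0.15, edgeR adjusted p = 0.306). Without ERRα KO insulin replicate 2, which was the highest for Eif3a and Eif5b and the lowest for Eif4e2, the call of Eif5b alone held. Total-count scaling in place of TMM moved the median of all genes here to -0.11, with 295 genes higher and 1195 lower in place of 624 and 741, and called 2 members higher and 2 lower. Of the markers, Marco (Kupffer cells), Cdh5 (endothelium), Pdgfra and Cd4 were called higher and Myh4 (muscle fibre) lower, and their part in the members' values was not tested.

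Whether WT and ERRα KO livers responded differently to insulin was tested as an interaction, the insulin effect in WT minus that in KO livers. Of 50 members, 6 had a called positive difference and 4 a called negative one, against 4.75% and 4.04% of all 14670 genes, with medians of 0.11 and 0.02. The members' median was 0.04 without WT insulin replicate 2, 0.07 without WT saline replicate 4, 0.18 without WT insulin replicate 3 and 0.17 with total-count scaling. Neither the members nor any other gene passed the adjusted p with edgeR, where the unadjusted p was under 0.05 for 10 members, and DESeq2 gave 0 members and 20 genes. Positive differences belonged to Eif1a (0.73, SE 0.25), Eif6 (0.48, SE 0.19), Eif2b2 (0.46, SE 0.20), Eif1 (0.46, SE 0.17), Eif2s1 (0.44, SE 0.17) and Eif4e2 (0.42, SE 0.17). Side by side, Eif1a had an insulin effect of 0.56 in WT and -0.17 in KO livers, Eif6 of 0.35 and -0.14, and Eif2s1 of 0.41 and -0.03. For Eif2b2 these were 0.31 and -0.16, and for Eif1 they were 0.67 and 0.20, on the same side of 0. Of the positive differences, Eif1a and Eif6 were also called higher in KO than in WT livers with saline under every alternative. Counting only alternatives that kept all livers, Eif1 was called higher there under 6 of 6, Eif2b2 under 4 and Eif2s1 under 2. Eif4b, which had a negative difference, was called lower there under 6 of 6. Those samples are shared with this test.

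Negative differences belonged to Eif5b (-0.65, SE 0.18), Eif4g3 (-0.54, SE 0.21), Eif3a (-0.47, SE 0.19) and Eif4b (-0.47, SE 0.16). Eif5b had an insulin effect of -0.31 in WT and 0.33 in KO livers, and Eif3a of -0.28 and 0.19. The smallest adjusted p among the 10 was 0.422, for Eif5b. Without ERRα KO insulin replicate 2, 5 members were called, with Eif1, Eif3a, Eif4e2, Eif4g3 and Eif6 lost, and Eif5b, Eif1a and Eif4b were called without any 1 of the 15 livers. Eif2b2 was lost without ERRα KO saline replicate 4, ERRα KO insulin replicate 1, WT saline replicate 1 or WT insulin replicate 2, Eif3a and Eif4g3 without WT saline replicate 2, Eif6 without ERRα KO saline replicate 4 or WT insulin replicate 1, and Eif2s1 without ERRα KO insulin replicate 4. Total-count scaling gave 8 members positive and 4 negative, with 897 genes positive and 311 negative in place of 697 and 592. Of the markers, Marco, Lrat and Alas2 had called negative differences, and their part in the members' values was not tested.

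**Figure D2:**
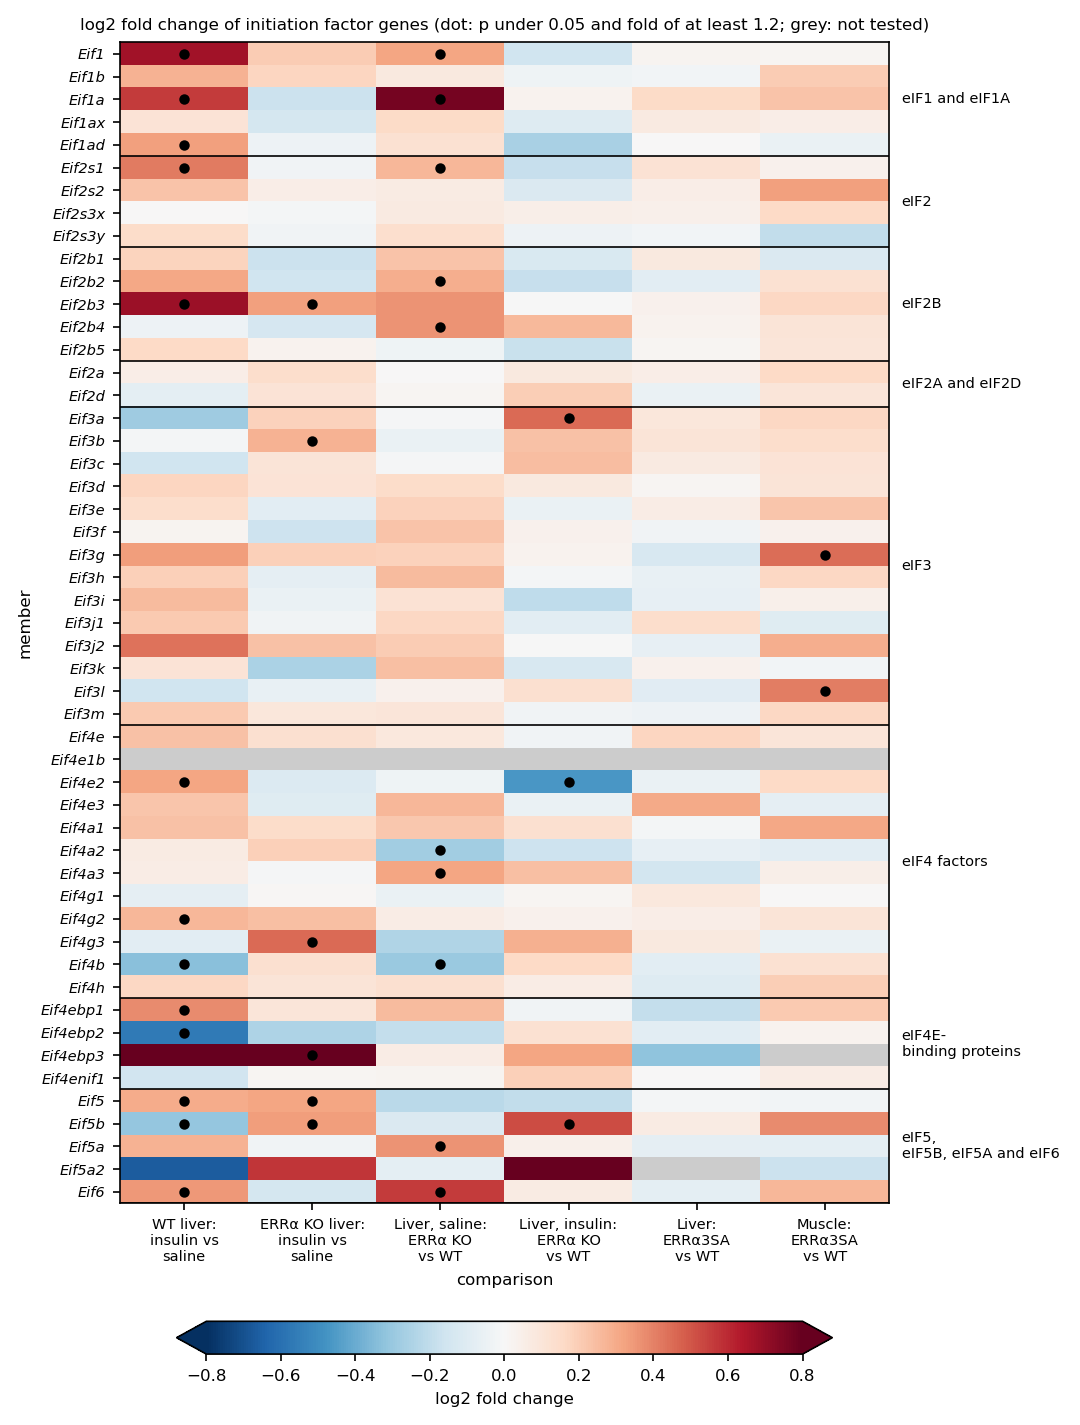
Log2 fold change of each of the 51 members (rows, by family) in the 4 insulin and ERRα KO comparisons and the 2 ERRα3SA comparisons (columns), with colour from -0.8 to 0.8, dots for called members and grey for members not tested. Among these 6, dots mark 13 members for insulin in WT liver, 10 for ERRα KO with saline and none for ERRα3SA in liver.

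Genes that act on the factors were read from 6 lists. The counts called in these lists stand beside shares of all genes called higher and lower of 8.34% and 8.91% for insulin in WT liver, 8.05% and 9.14% in KO liver, 5.98% and 5.3% for KO with saline, and 4.57% and 5.42% with insulin. Of 11 genes for eIF2 kinases and phosphatase subunits, insulin in WT liver was followed by higher Ppp1r15a, the inducible phosphatase subunit (0.51, SE 0.19), higher Ppp1cb (0.38, SE 0.13) and lower Ppp1r15b (-0.34, SE 0.12), with a median of -0.05. Ppp1r15a was 8.47, 7.72, 8.36 and 7.74 CPM with saline and 10.4, 16.2, 9.66 and 9.75 CPM with insulin in WT, and 7.09 to 9.13 CPM against 11.2 to 13.7 CPM in KO livers (0.57, SE 0.15). In KO livers the kinase gene Eif2ak3 was called lower with insulin (-0.71, SE 0.24), and with saline it was higher in KO than in WT (0.55, SE 0.22) while Eif2ak2 was lower (-0.34, SE 0.12). None of the 11 was called between genotypes with insulin, and Eif2ak1, the haem-regulated kinase gene, had a called negative interaction (-0.37, SE 0.14).

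Of 21 genes of mTORC1, S6 kinase and MNK, 4 were called higher and 3 lower with insulin in WT liver and 6 higher and 1 lower in KO liver. Mtor itself was 83.6, 100.2, 98.7 and 93.0 CPM with saline and 74.9, 47.7, 74.9 and 77.6 CPM with insulin in WT, without overlap (-0.45, SE 0.16), and it was called lower in KO livers as well (-0.28, SE 0.10). The inhibitors Ddit4 (2.79, SE 0.77), Sesn1 (0.79, SE 0.24) and Sesn2 (0.58, SE 0.20) were called higher in WT, and in KO livers they stood at 2.32 (SE 0.42), 1.71 (SE 0.21) and 1.33 (SE 0.25). Deptor, another inhibitor, fell in WT livers from 294, 343, 334 and 291 CPM to 207, 132, 215.5 and 188 CPM (-0.77, SE 0.16, edgeR adjusted p = 0.0262). Tsc2 (-0.37, SE 0.13) fell and Mknk2, a kinase of eIF4E, rose (0.27, SE 0.11) in WT. Tsc1 (0.98, SE 0.14), Rptor (0.32, SE 0.12) and Sesn3 (0.41, SE 0.17) rose in KO livers. The interaction was called for 6 of the 21, all negative (Rptor, Deptor, Tsc1, Tsc2, Sesn1 and Sesn2), where 4.75% of all genes were called positive and 4.04% negative, and none of the 6 had an adjusted p under 0.05. With saline, Rps6, Mknk2 and Ddit4 were called higher and Deptor, Tsc1, Tsc2 and Castor2 lower in KO livers, and with insulin Mknk2 and Sesn2 were called higher.

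Pdcd4, which sequesters the eIF4A helicase, led the 11 poly(A)-binding and eIF4A regulators. It was 82.6, 89.7, 65.7 and 88.1 CPM in WT saline livers and 40.6, 51.5, 55.1 and 44.9 CPM in WT insulin livers. The groups did not overlap (-0.76, SE 0.14, edgeR adjusted p = 0.0178), KO livers had 64.9 to 85.2 CPM with saline and 62.6 to 73.6 CPM with insulin, and the interaction was called (-0.54, SE 0.19). Paip1 was called higher (0.34, SE 0.12) and Cyfip1 lower (-0.31, SE 0.12) with insulin in WT. Pabpc4 rose with insulin in KO livers (0.47, SE 0.12). With insulin, Pdcd4 was higher in KO than in WT livers (0.47, SE 0.14), and the interaction was also called for Pabpc1 (-0.59, SE 0.20). With saline, Pabpc1 (-0.35, SE 0.14) and Pabpc4 (-0.53, SE 0.12) were lower in KO than in WT.

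Of the 7 recycling and reinitiation factors found, 0 were called with insulin in either genotype, and Denr was higher in KO saline livers (0.29, SE 0.11). Of the elongation and termination factors, 11 tested in WT and 12 in KO livers, Etf1 (0.27, SE 0.12) and the enzymes that put hypusine on eIF5A, Dhps (0.46, SE 0.18) and Dohh (0.31, SE 0.14), were called higher with insulin in WT liver, and Eef2k, the kinase that slows elongation, was called lower in WT (-1.19, SE 0.32) and in KO (-0.86, SE 0.33). In KO saline livers Eef1b2, Eef1e1 and Eef1g were called higher and Eef2k lower. Of the ATF4 targets, 18 tested in WT and 17 in KO livers, Chac1 (1.87, SE 0.46), Slc3a2 (0.70, SE 0.21), Sesn2 and Atf5 (0.34, SE 0.13) were called higher with insulin in WT, and Sesn2 higher and Fgf21 (-1.30, SE 0.36) and Gdf15 (-1.48, SE 0.64) lower in KO livers. Atf5, Chac1 and Fgf21 were called higher in KO saline livers, and Sesn2 and Aars higher and Phgdh lower in KO insulin livers. In these 3 lists the interaction was called positive for Mcts1 (0.36, SE 0.17), Eef1b2 (0.54, SE 0.25), Dhps (0.52, SE 0.22), Atf5 (0.57, SE 0.19) and Chac1 (2.39, SE 0.72) and negative for Sesn2 (-0.76, SE 0.35).

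The ERRα3SA change was followed in liver by no called member, of 49 tested, where 2.5% of all 13339 genes were called higher and 2.38% lower. DESeq2 also called 0, and by edgeR 1 member, Eif4a3, had an unadjusted p under 0.05, at a log2 fold change of -0.15 that is under the fold limit. The medians were 0.00 over the members and over all genes. ERRα3SA liver replicate 4, the sample with the low hepatocyte sum, stood apart from its group, and without it 0 members and 892 genes were called, in place of 651 genes. The eIF3 genes ran from -0.13 to 0.14, and the eIF1, eIF2 and eIF2B genes from -0.08 to 0.16. In 4 of 49 members (8.16%) the genotypes did not overlap, against 4.94% of all genes tested: Eif3a (0.09), Eif3b (0.11), Eif3l (-0.09) and Eif4a3. Eif3l was 98.7, 98.6, 95.0 and 97.3 CPM in WT liver and 91.1, 91.5, 91.0 and 91.8 CPM in ERRα3SA liver. Eif3b was 122, 124, 117 and 127.4 CPM in WT liver and 131, 132, 127.6 and 136 CPM in ERRα3SA liver. These small differences went both ways and lay under the fold limit. Eif4e3 had the highest value, 0.30, and was called with all groups of the table in 1 fit, without WT liver replicate 1 and without ERRα3SA liver replicate 3. Of 4 cholangiocyte genes, 3 (Krt19, Epcam and Krt7) were called lower here, while their summed level, led by Sox9, was 9.82 to 14.5 CPM in WT and 8.78 to 14.4 CPM in ERRα3SA livers, and of other markers Lrat and Ptprc were called higher and Cd79a (lymphocytes) lower, and the part of these in the result was not tested. Among genes of the 6 lists, Eif2ak2 was called higher (0.48, SE 0.11), and Pdcd4 (-0.35, SE 0.13), Chac1 (-0.86, SE 0.21) and Gdf15 (0.70, SE 0.26) were also called.

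In muscle, the ERRα3SA samples had 2 called members of 49, both higher and both in eIF3, where 2.78% of all 14081 genes were called higher and 1.75% lower. Eif3g, an eIF3 subunit that helps scanning, was 34.4, 30.4, 30.3 and 32.0 CPM in WT muscle and 53.4, 41.1, 37.3 and 38.5 CPM in ERRα3SA muscle. The groups did not overlap (0.45, SE 0.13, edgeR adjusted p = 0.8796). Eif3l was 48.0, 42.5, 43.8 and 44.5 CPM in WT muscle and 80.8, 50.9, 52.9 and 48.6 CPM in ERRα3SA muscle, also without overlap (0.41, SE 0.17, edgeR adjusted p = 0.9996). Eif3l lost its call without ERRα3SA muscle replicate 1 or WT muscle replicate 2, 3 or 4, and Eif3g kept its call in each case. The members' median was 0.10 and that of all genes 0.02, and the former was 0.07 with the replicate block and 0.02 with total-count scaling. Total-count scaling gave 2 members higher and 1 lower, with 188 genes higher and 373 lower in place of 392 and 247. Of the markers, Sox9 and Hba-a2 were called higher and Krt19, Retn (adipocytes) and Myf5 (satellite cells) lower, and their part in the result was not tested. Of the listed genes, Eef1e1 (0.29, SE 0.13), Atf3 (2.03, SE 0.87) and Asns (0.95, SE 0.40) were called higher.

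ERRα3SA muscle replicate 1, the sample with the high mitochondrial share, differed from its group in many members. Its muscle fibre sum was 179200 CPM, against 80100 to 117400 CPM in the other muscles. The part of this and of the mitochondrial share in the members' values was not tested. Eif5b was 301 CPM there against 97.3, 95.4 and 80.6 CPM in the other ERRα3SA muscles, and Eif3a 383 CPM against 180.0, 178 and 167 CPM. Eif5a was 118 CPM against 320.5, 327 and 307 CPM, and Eif6 10.5 against 28.7, 28.3 and 31.8 CPM. It was thus the highest muscle for some members and the lowest for others. Without it, 8 members were called, 5 higher and 3 lower, where 10.3% of all 14363 genes were called higher and 7.1% lower, and the members' median was -0.02. Higher were Eif6 (0.53, SE 0.10, edgeR adjusted p = 0.029), Eif4h, a helicase cofactor (0.40, SE 0.07, edgeR adjusted p = 0.0276), Eif3g (0.33, SE 0.07, edgeR adjusted p = 0.049), Eif4ebp1 (0.41, SE 0.09) and Eif2b2 (0.28, SE 0.07). Lower were Eif3j1 (-0.37, SE 0.09), Eif2s3y (-0.31, SE 0.07) and Eif5b (-0.27, SE 0.09). The 3 muscles left include replicate 4, which also stood apart by its markers, and its part in these 8 calls was not tested.

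**Figure D3:**
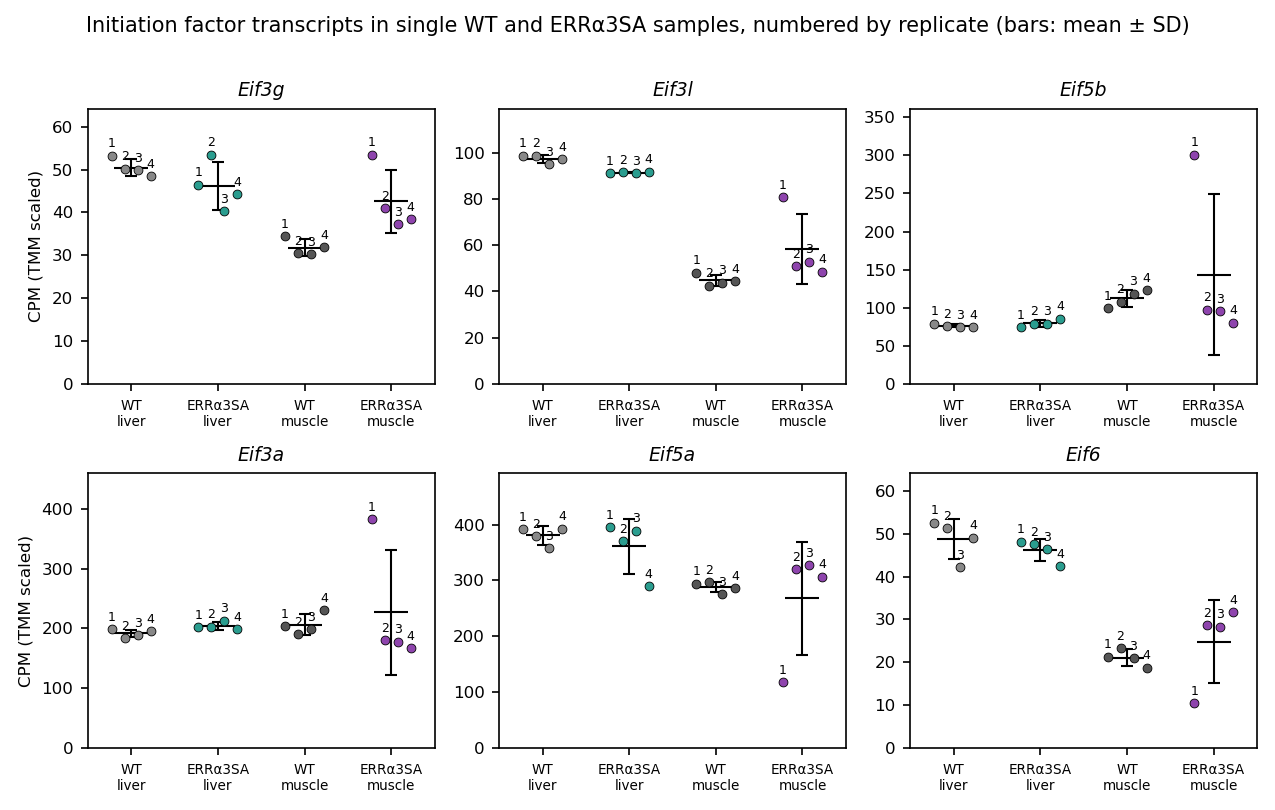
CPM of 6 initiation factor genes in single WT and ERRα3SA livers and muscles, with points numbered by replicate and bars for the mean ± SD (n = 4). ERRα3SA muscle replicate 1 lies far from the other 3 ERRα3SA muscles, with 301 CPM of Eif5b and 118 CPM of Eif5a, while the livers of both genotypes overlap for most genes.

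WT muscle and WT liver, compared as a description of the tissues, differed in most members. With the adjusted p also required to be under 0.05, 24 of 50 members were called higher and 11 lower in muscle, where 41.8% of all 14886 genes were called higher and 42.1% lower. The medians were 0.20 over the members and 0.00 over all genes, and total-count scaling moved them to 0.34 and 0.14 and called 28 members higher and 9 lower, without Eif2d and Eif5a. The fit of all groups of the table lost the calls of Eif2a, Eif5a and Eif5b. The muscle RNA was extracted with another kit than the liver RNA, so tissue and extraction cannot be told apart. All 5 eIF2B genes were called higher in muscle, by 0.44 to 0.84, while in eIF2 the beta subunit gene Eif2s2 was called (1.29, SE 0.07) and the other 3 lay between -0.10 and -0.04. Of 14 eIF3 genes, 5 were higher and 3 lower.

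For some paralogs, picked after the values were seen, the 2 genes went opposite ways, as Eif1a with Eif1ax, Eif4a1 with Eif4a2 and Eif5a with Eif5a2 did, and for others, as Eif4e with Eif4e3, both were higher. Eif1a was 74.1, 66.5, 68.0 and 76.9 CPM in liver and 15.3, 14.1, 13.4 and 15.3 CPM in muscle (-2.26, SE 0.08, edgeR adjusted p = 1.54e-12). Its paralog Eif1ax was 49.9, 42.4, 43.1 and 42.2 CPM in liver and 119, 121, 124 and 118 CPM in muscle (1.47, SE 0.07, edgeR adjusted p = 9.87e-11). Eif1a thus made up 67.0% ± 1.92 (SD, n = 4) of the summed TPM of the pair in liver and 13.2% ± 1.01 (SD, n = 4) in muscle. Eif4a1 was 287, 264, 265 and 288 CPM in liver and 87.7, 81.1, 83.1 and 78.5 CPM in muscle (-1.71, SE 0.07, edgeR adjusted p = 7.23e-12), and Eif4a2 was called higher in muscle (0.39, SE 0.06). Eif4a1 was 54.1% ± 2.29 (SD, n = 4) of the pair's TPM in liver and 21.6% ± 1.17 (SD, n = 4) in muscle.

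Of the 11 eIF4 factors tested, 6 were called higher in muscle and 3 lower, and Eif4b and Eif4e2 were not called. Eif4e3, a less abundant cap-binding form, was 4.98, 3.68, 3.56 and 3.79 CPM in liver and 33.4, 32.0, 35.6 and 32.9 CPM in muscle. This was the largest increase among the members tested (3.08, SE 0.11, edgeR adjusted p = 2.86e-12). Part of its exon bases (14.8%) is shared with Gm20696. The scaffold Eif4g3 was 58.0, 64.6, 64.2 and 70.6 CPM in liver and 220.3, 215, 270.2 and 243 CPM in muscle (1.92, SE 0.08, edgeR adjusted p = 2.97e-11). Eif4e (1.28, SE 0.06), Eif4g1 (0.53, SE 0.07) and Eif4g2 (0.56, SE 0.08) were also called higher, and Eif4e made up 83.7% ± 2.08 (SD, n = 4) of its pair with Eif4e3 in liver and 59.2% ± 2.09 (SD, n = 4) in muscle. For Eif4g1 with Eif4g3 the shares were 93.4% ± 0.361 and 84.4% ± 1.22 (SD, n = 4 each). The pairs were chosen after the values were seen, and their shares are given without a test.

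Eif5a2, the rarer eIF5A gene, was 0.351, 0.594, 0.343 and 0.357 CPM in liver and 3.16, 2.49, 1.86 and 1.95 CPM in muscle (2.55, SE 0.28, edgeR adjusted p = 1.2e-06), while Eif5a was called lower in muscle (-0.37, SE 0.06). Even so, Eif5a2 stood at 1.42 TPM in muscle beside 365 TPM of Eif5a. Eif3j1, a loosely bound eIF3 subunit, was 57.1, 52.7, 60.2 and 59.4 CPM in liver and 147, 169, 187 and 182 CPM in muscle (1.61, SE 0.08, edgeR adjusted p = 1.38e-10), and its near copy Eif3j2 was called higher as well (1.11, SE 0.24). Reads of the 2 copies may be split uncertainly, and 19.0% of the Eif3j1 exon bases also lie in Spg11.

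Lower in muscle were Eif6, at 52.6, 51.3, 42.2 and 49.1 CPM in liver and 21.4, 23.4, 21.0 and 18.8 CPM in muscle (-1.18, SE 0.09, edgeR adjusted p = 1.65e-08), and Eif3l, at 95.0 to 98.7 CPM in liver and 42.5 to 48.0 CPM in muscle (-1.09, SE 0.06, edgeR adjusted p = 4.05e-10). Neither had a muscle within the liver range. Eif4h (-0.89, SE 0.06), Eif3d (-0.78, SE 0.06), Eif4a3 (-0.68, SE 0.07), Eif3g (-0.63, SE 0.07) and Eif2d (-0.38, SE 0.06) were also called lower. Eif4ebp3 had 15 to 72 counts per liver and 0 to 1 count per muscle, too few for a fold to be given. Eif4ebp2 and Eif4ebp1 were not called, and Eif1 was higher in muscle (0.86, SE 0.07), where it was the most abundant member at 655.5 TPM.

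Of all genes, 41.8% were called higher and 42.1% lower in muscle, and the pathway lists are given beside these shares. The list of eIF2 kinases and phosphatase subunits had 4 of 11 called higher and 6 lower in muscle, mTORC1, S6 kinase and MNK 12 of 21 higher and 4 lower, and poly(A)-binding and eIF4A regulators 5 of 11 higher and 3 lower. Of recycling and reinitiation factors 3 of 7 were higher and 1 lower, of elongation and termination factors 7 of 13 higher and 4 lower, and of ATF4 targets 6 of 18 higher and 9 lower. Pdcd4 was 185 to 208 CPM in liver and 14.0 to 17.1 CPM in muscle. The elongation factor genes Eef1a1 and Eef1a2 stood at 4580 to 5025 and 0 to 0.319 CPM in liver and at 343 to 392 and 1535 to 1698 CPM in muscle.

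**Figure D4:**
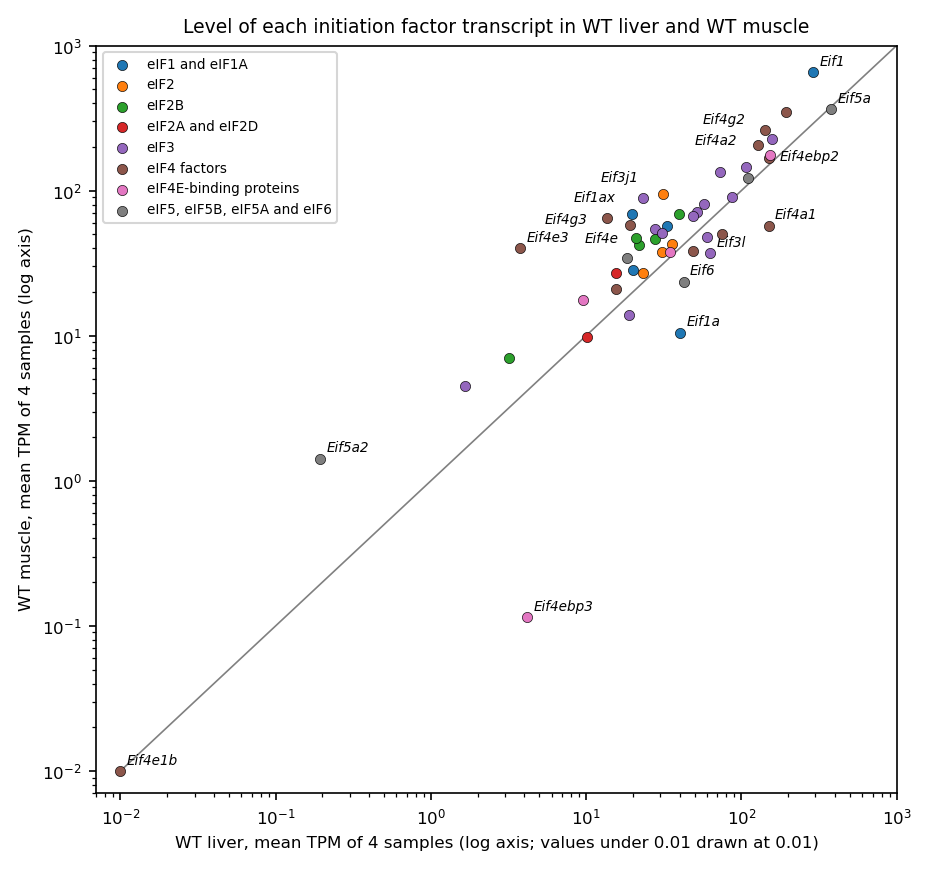
Mean TPM of each member in WT liver (x axis, log scale) and WT muscle (y axis, log scale), coloured by family, with the line of equal levels. Eif4e3, Eif4g3 and Eif1ax lie above the line and Eif1a, Eif4a1 and Eif4ebp3 below it.

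**Figure D5:**
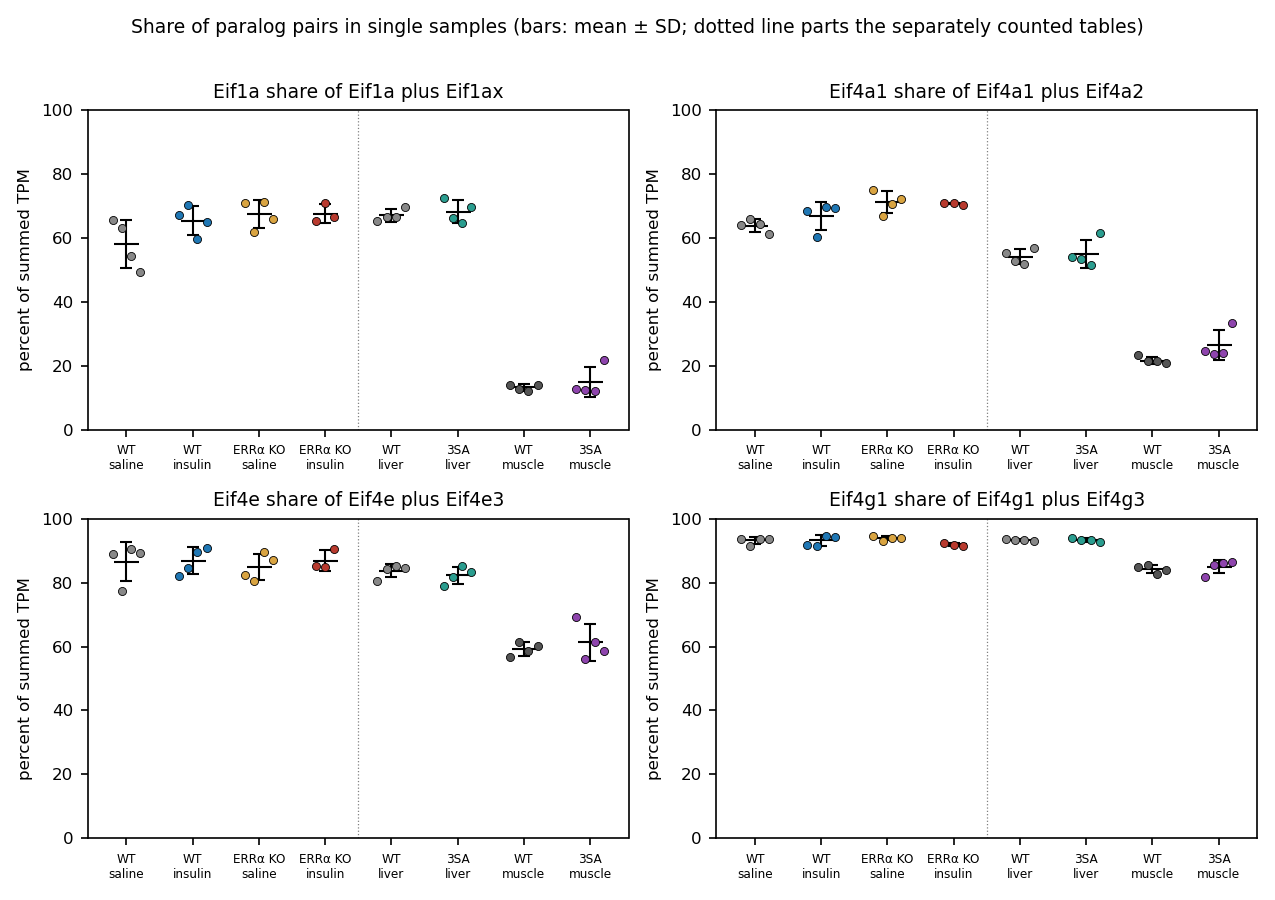
Share of the first gene in the summed TPM of 4 paralog pairs in each sample of the 8 groups, with bars for the mean ± SD (n = 4, and 3 for ERRα KO insulin). Eif1a makes up 67.0% of its pair in WT liver and 13.2% in WT muscle, and Eif4a1 54.1% and 21.6%.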

How the data were processed

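Livers and skeletal muscles of mice, 31 samples in 8 groups, were compared. Per the labels the authors aligned paired reads to mm10 with STAR 2.5 and deposited raw counts per gene in 2 tables; the strand setting of the counting was not given. A GENCODE vM21 symbol was found for 34490 of 35275 gene identifiers of the insulin data and for 54495 of 54532 of the ERRα3SA data; 0 columns were left unused. The ERRα3SA muscle columns are abbreviated SA in the data and 3A in the sample titles and were taken as 1 genotype, as no other muscle samples fit them. The members and lists were chosen with earlier results of these data known. From the deposited counts, edgeR 4.0.16 in R 4.3.3 gave TMM scaled CPM and quasi-likelihood tests on genes kept by its filter for low counts, and DESeq2 1.42.0 was an alternative. No fold is given at or under 3 counts. Each comparison used only its own groups, and its adjusted p values cover all genes tested. Muscle against liver also needed an adjusted p under 0.05.

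Named members are those called in any of the 7 comparisons within a tissue, the most and least abundant of each family, the Eif2s3 pair, and the largest of the at least 2-fold liver to muscle differences; other pathway genes are named where called, except that the rule was not followed for muscle against liver, where most are given as counts. Alternatives were DESeq2, RLE scaling, no filter on low counts, a replicate block, all groups of a table in 1 fit, and leaving out each sample. Scaling by total counts was added after the data were seen. Of 7 promoter motifs, NRF1, CCAAT and ETS were added after the members' values were seen. CCAAT and ETS were for a time left out after their matches were seen, and then restored. The NRF1 matches were known when it was chosen for display, and the paralog pairs were chosen after the values were seen. The fits were tested on simulated data, of which no result is given here.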

Additional observations from a re-analysis of the deposited data

Results flagged for a closer look

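Samples far from the rest of their group were sought with Dixon's test at 95% in 182 groups of 4 (24 members called within a tissue, total counts and mitochondrial share), where chance alone gives about 1 in 20. In log2 CPM, ERRα3SA muscle replicate 1 stood apart for Eif3a (8.58 against 7.38 to 7.49), Eif3l (6.34), Eif4g2 (10.4), Eif5a (6.88), Eif5b (8.23) and Eif6 (3.40), and its mitochondrial share was 19.3%. ERRα3SA liver replicate 4 stood apart for Eif1 (7.59), Eif4b (7.74), Eif4e2 (5.27) and its total counts (20481405). WT insulin replicate 2 did so for Eif4a2 (7.94), Eif4g2 (9.72) and its mitochondrial share (1.88%). Single cases were Eif2b2 in ERRα KO saline replicate 4 (4.20), Eif2b3 in WT saline replicate 4 (2.54), Eif4ebp3 in WT muscle replicate 4 (-3.65, from 0 to 1 counts), and the mitochondrial shares of ERRα KO saline replicate 3 (3.91%) and WT muscle replicate 1 (10%).

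Insulin's effect differed between WT and ERRα KO livers by the call rule of this report, with no adjusted p under 0.05, for Eif5b (-0.65), Eif4b (-0.47), Eif1a (0.73), Eif1 (0.46), Eif4g3 (-0.54), Eif6 (0.48), Eif3a (-0.47), Eif2s1 (0.44), Eif4e2 (0.42) and Eif2b2 (0.46). Eif3l differed from WT by -0.089 in liver and by 0.41 in muscle, without overlap and in opposite directions, and this difference between tissues was not tested. The muscle value was 0.22, and not called, without ERRα3SA muscle replicate 1. The pseudogene Eif4a-ps4, outside the members, had up to 127 counts in a sample of the second table, and how many came from its parent gene cannot be told.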

How the results depend on the processing

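Leaving out 1 sample at a time gave 9 to 14 members called for insulin in WT liver, 1 to 6 in ERRα KO liver, 5 to 16 for ERRα KO with saline, 1 to 4 with insulin, 5 to 12 for the interaction, 0 to 1 for ERRα3SA in liver, 1 to 8 in muscle, and 35 to 36 for muscle against liver. With all groups of the table in 1 fit, 1 member was called for ERRα3SA in liver in place of 0, and the cause was not tested. No other setting moved a count of members called by over 1.5 times. Over all genes, the 651 calls for ERRα3SA in liver became 1050 without the filter for low counts, and the 639 in muscle became 1071 without it, 1013 with all groups in 1 fit and 334 with the replicate block. Total-count scaling, chosen after seeing the data, shifted the all-gene median by more than 0.1 in 1 comparison, muscle against liver, and moved the split of higher and lower calls in others, as given in the report. For the 79 called values of single genes, 1157 alternatives gave 1049 on the same side of the threshold, 108 weaker and 0 reversed. Of the 108, 103 fell on the 44 calls within a tissue (667 alternatives) and 5 on the 35 of muscle against liver (490). Calls gained under an alternative are not in these counts. The replicate numbers were not shown to pair the samples, and pairing was not excluded. In no comparison was every pair's correlation over 0.1, and in none did every sample correlate best with its own number. Pair correlations ran from -0.032 to 0.29 for insulin in WT liver and from -0.045 to 0.332 for ERRα3SA in liver. Samples that correlated best with their own number were 3 of 4 for ERRα KO with saline and 0 of 4 for ERRα3SA in muscle. With the replicate block the counts were 13 for insulin in WT liver, 4 in ERRα KO liver, 9 for ERRα KO with saline, 3 with insulin, 10 for the interaction, 0 for ERRα3SA in liver, 2 in muscle and 35 for muscle against liver. Groups hold 3 or 4 mice, few members passed the adjusted p within a tissue, and genes of few counts such as Eif5a2, Eif4ebp3 and Eif4e1b are limited by depth. RNA levels say nothing of the phosphorylation of these factors.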
